A study of Drosophila melanogaster with 6 samples.

Results

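Mpcp1 and Mpcp2 are the fly's pair of mitochondrial phosphate carrier genes, and they are described here in whole larvae fed with or without palm fruit juice. The members were the array rows annotated to exactly Mpcp1 or exactly Mpcp2. Each gene had 1 such row, so the members were 2 of the 10051 genes tested, and both lay above the filter on dim genes. The members were selected on measured values: Mpcp1 was chosen by its high log2 values in the juice arrays of this comparison, and Mpcp2 as its paralog. Their difference between the diets is therefore a description, given without a test.

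Both groups were larvae of the w1118 background, which carries a mutation in the eye colour gene white, aged 5 days from the egg. The control group ate a semi-purified diet, and the treated group ate that diet with palm fruit juice, an aqueous extract of oil palm fruit. There were 3 arrays per diet, each of total RNA pooled from 3 to 4 whole larvae of unstated sex, so p-values cover the spread between pools only, and part of it may be technical.

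Mitochondria make most of their ATP from ADP and inorganic phosphate, and both substrates have to cross the inner membrane. The phosphate carrier brings phosphate into the matrix together with a proton, the ADP/ATP carrier exchanges ADP for ATP, and ATP synthase joins ADP and phosphate. The synthase is driven by the proton gradient that complexes I, III and IV of the respiratory chain build up. Both carriers belong to the large family of mitochondrial carriers known in mammals as SLC25, and the mammalian phosphate carrier also admits copper for complex IV. In whole larvae a higher value can mean more cells of a type or more RNA per cell, and the arrays cannot tell these apart.

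Values are log2 expression values after RMA, so that a difference of 1 is a doubling. No gene of the 10051 tested passed limma's adjusted p of 0.05 (0%, smallest adjusted p = 0.931), with moderation or without. At unadjusted p under 0.05 there were 470 genes, 4.68% of those tested. Of these 57.2% were higher with juice, which became 68.3% when arrays were quantile normalized and 75.1% when their medians were made equal. Control replicate 1 and juice replicate 2 stood apart, with 536 and 440 genes at least 2-fold away from what the remaining arrays averaged, where the others had 54 to 178. Of the genes with a row, 11 of 11 muscle markers, 9 of 10 midgut, 4 of 5 fat body, 9 of 9 nervous system, 6 of 6 salivary gland and 7 of 12 testis markers passed the filter on dim genes.

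Mpcp1 was measured at 6.13, 6.78 and 5.76 in control replicates 1, 2 and 3 and at 8.32, 8.81 and 7.26 in juice replicates 1, 2 and 3. All juice arrays lay above all control arrays, with juice replicate 3 the nearest to the controls and control replicate 2 the nearest to the juice arrays. The means were 6.23 ± 0.52 and 8.13 ± 0.79 (SD, n = 3 per group), a difference of 1.90 ± 0.42 (limma's moderated SE). Against the control mean, the juice arrays stood 4.28-fold, 5.98-fold and 2.05-fold higher. Of the tested genes, 7 had a larger positive difference.

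Mpcp2 was measured at 7.79, 7.74 and 7.79 in the control arrays and at 7.96, 7.99 and 7.87 in the juice arrays, in the same order of replicates. Its groups did not overlap either, but they were close, and all 6 arrays lay within 0.26 of each other. The means were 7.77 ± 0.03 and 7.94 ± 0.07 (SD, n = 3 per group), a difference of 0.17 ± 0.12 (limma's moderated SE). Both members thus had all juice arrays above all control arrays, which was so in 4.96% of tested genes, and nothing is read from this, since that contrast chose Mpcp1.

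**Figure D1:**
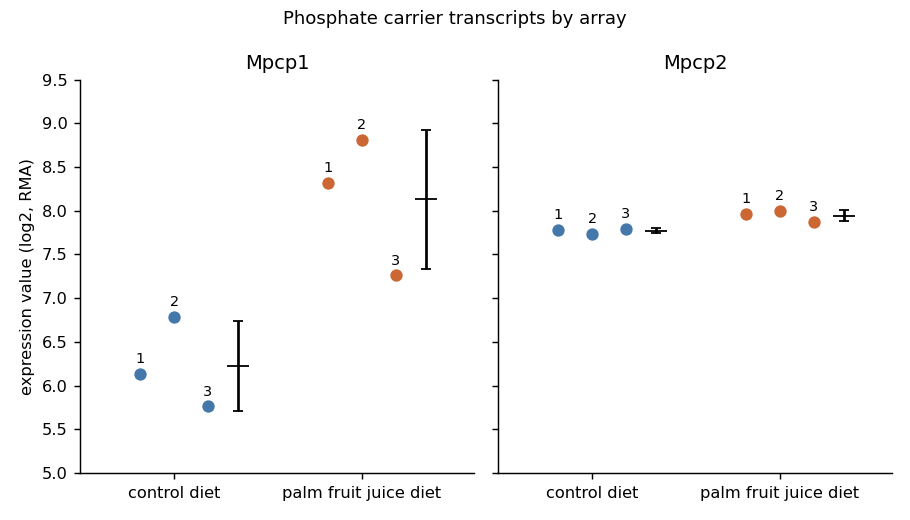
Log2 expression value of Mpcp1 (left) and Mpcp2 (right) on each array, with the replicate number above each point and the mean ± SD (n = 3) beside each group. Mpcp1 runs from 5.76 to 8.81 and Mpcp2 from 7.74 to 7.99; heights of the 2 genes are not comparable, since they come from different probes.

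The paralogs also differed in how far they spread. The range of Mpcp1 over the 6 arrays was 3.05, an 8.26-fold span, which contains the diet difference the gene was chosen for. The range of Mpcp2 was 0.26, a 1.19-fold span. The ranges within a diet leave that difference out, but they are not free of the choice. A pick by a large difference over 3 arrays per diet favours genes that spread widely. Across the 3 control arrays Mpcp1 ranged over 1.02 and Mpcp2 over 0.05, where the median tested gene ranged over 0.32, and 92.0% and 2.57% of tested genes had a smaller range. Across the 3 juice arrays the ranges were 1.55 and 0.13, with a median of 0.45 over all tested genes, and 97.9% and 6.85% of tested genes had a smaller range.

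Because the genes are read by different probes, the distance between them within an array has no meaning as a level, but a shift of that distance between arrays does. Mpcp1 minus Mpcp2 was -1.65, -0.96 and -2.03 in the control arrays and 0.36, 0.81 and -0.61 in the juice arrays. All juice arrays lay above all control arrays, and the group means differed by 1.73. The fold difference of Mpcp1 between the diets was thus 3.32 times that of Mpcp2. This shift was no test of the diet, since Mpcp1 was chosen for its part in it. Cross-hybridisation between the paralogs was not tested, as no probe sequences were used here.

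The order of the arrays was alike only in part. Among the juice pools both genes were highest in replicate 2 and lowest in replicate 3. Among the control pools Mpcp1 was highest in replicate 2, where Mpcp2 was lowest. Over the 6 arrays Pearson's r between the paralogs was 0.900 and Spearman's rho 0.771, and r was 0.550 for deviations from the group means, all given as a description.

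The respiratory chain and ATP synthase were followed through a list of nuclear-encoded subunits. Of 70 listed genes, 59 had a row of their own and 56 passed the filter on dim genes. A higher mean with juice was seen in 54 of the 56, against 44.9% of all tested genes, and in 56 of 56 with either quantile normalization or equal medians. The median difference was 0.34, against -0.03 over all tested genes. At unadjusted p under 0.05 limma gave 11 higher, or 19.6% of the 56, and 0 lower, where 2.68% of all tested genes were higher and 2.00% lower, and 0 passed at adjusted p under 0.05. The subunits share arrays and moved together, so these counts are not independent of each other. Without juice replicate 2 the median difference was 0.20, and with control replicate 1 also left out it was 0.13.

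Array by array, the mean of the 56 subunits stood 0.31 above the control mean in juice replicate 1, 0.63 in replicate 2 and 0.06 in replicate 3. The control arrays lay at -0.07, 0.03 and 0.04. Juice replicate 3 was therefore almost at the level of control replicate 3 in the chain, while its Mpcp1 value lay 2.05-fold above the control mean. Juice replicate 2 held the highest value of 47 of the 56 subunits, against 27.0% of all tested genes. Juice replicate 1 held the highest value of 8 subunits and juice replicate 3 of 1. In juice replicate 3, 19 of the 56 subunits lay above all control arrays, 33.9% of them against 29.2% of all tested genes.

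**Figure D2:**
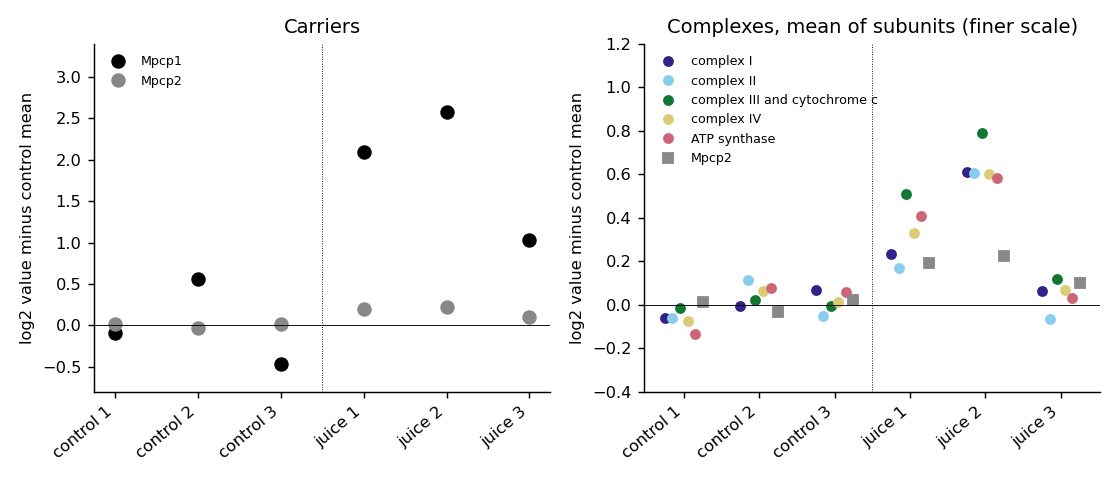
Log2 value minus the control mean on each array, for Mpcp1 and Mpcp2 (left) and, on a finer scale, for the mean of the tested subunits of each complex, with Mpcp2 repeated as grey squares (right). Mpcp1 is highest in juice replicate 2 and stays above all controls in juice replicate 3, where the chain as a whole lies 0.06 above the control mean.

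Complex I, which takes electrons from NADH, had 26 of 27 tested subunits higher with a median difference of 0.31. At unadjusted p under 0.05, 4 were higher and 0 lower, or 14.8% of the 27. Here and for the complexes below, 44.9% of all tested genes had a higher mean. At unadjusted p under 0.05, 2.68% of all tested genes were higher and 2.00% lower. ND-B14.5A, an accessory subunit, was measured at 5.95, 6.08 and 6.14 in control and 6.68, 6.91 and 6.49 in juice arrays. ND-39, another accessory subunit, ran from 4.58 to 4.79 in control and from 5.11 to 5.72 in juice arrays. In both genes the groups did not overlap, and juice replicate 3 was the lowest juice array. Both were named for a small unadjusted p, which favours groups that do not overlap. All juice arrays lay above all control arrays in 8 of the 27 subunits, against 4.96% of all tested genes. ND-MLRQ, whose mammalian counterpart is now placed in complex IV, was at 6.43, 6.53 and 6.24 in control and 6.89, 7.19 and 6.65 in juice arrays, the same order of arrays as Mpcp1 throughout. ND-B14.5B differed by 0.51 ± 0.19 (SE).

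Complex II, the succinate dehydrogenase, had the smallest median difference, 0.26, with 3 of 3 tested subunits higher but 0 at unadjusted p under 0.05. SdhD, a membrane anchor, differed by 0.37 ± 0.19, the iron-sulfur subunit SdhB by 0.26 ± 0.19 and the other anchor SdhC by 0.08 ± 0.24 (SE). The mean of the complex in juice replicate 3 lay below the control mean.

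Complex III, which passes electrons to cytochrome c, had 7 of 7 tested subunits higher and a median difference of 0.50, the largest of the 5 groups of subunits. At unadjusted p under 0.05, 3 were higher and 0 lower, where 2.68% of all tested genes were higher and 2.00% lower. RFeSP, the Rieske iron-sulfur protein, was measured at 7.42, 7.49 and 7.33 in control and 7.99, 8.13 and 7.61 in juice arrays. Cyt-c1, the cytochrome of the complex, was at 7.36, 7.56 and 7.52 and at 8.30, 8.46 and 7.67. RFeSP followed Mpcp1 in the order of all 6 arrays, and in Cyt-c1 the order differed only among the controls. UQCR-11, a small subunit, ranged from 4.85 to 4.89 in control and from 5.19 to 5.69 in juice arrays, and UQCR-6.4 differed by 0.67 ± 0.29 (SE) with overlapping groups.

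Complex IV, the cytochrome c oxidase, had 7 of 8 tested subunits higher and a median difference of 0.37. The count at unadjusted p under 0.05 was 2 higher and 0 lower, where 2.68% of all tested genes were higher and 2.00% lower. COX8, a small accessory subunit, was at 7.31, 7.60 and 6.98 in control and 7.98, 8.48 and 7.70 in juice arrays. Its range of 1.50 was the largest of the 56 subunits and about as wide as that of Mpcp1 within the juice group alone. COX5B differed by 0.52 ± 0.21, COX7C by 0.52 ± 0.24 and levy, the fly's subunit 6A, by 0.35 ± 0.17 (SE).

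ATP synthase, which uses the phosphate that these carriers bring in, had 11 of 11 tested subunits higher with a median difference of 0.36. At unadjusted p under 0.05, 2 were higher and 0 lower, where 2.68% of all tested genes were higher and 2.00% lower. ATPsyndelta, of the central stalk, was at 10.20, 10.25 and 10.18 in control and 10.60, 10.73 and 10.44 in juice arrays. ATPsynbeta, the catalytic subunit, was at 8.98, 9.37 and 9.21 and at 9.66, 9.98 and 9.44. In both the groups did not overlap, and juice replicate 3 was nearest to the controls. These genes too were named for a small unadjusted p. All juice arrays lay above all control arrays in 4 of the 11 subunits, against 4.96% of all tested genes. ATPsynCF6, a coupling factor of the peripheral stalk, differed by 0.36 ± 0.17 and ATPsynO, which ties that stalk to the catalytic head, by 0.41 ± 0.22 (SE).

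The relation of each paralog to the chain was measured over the 6 arrays. For Mpcp1 and the mean of the 56 subunits, Pearson's r was 0.891 (two-sided exact permutation p = 0.0125, adjusted p = 0.0229 over 12 relations of both paralogs to the chain and its 5 groups). Spearman's rho was 0.829 (exact permutation p = 0.0583, adjusted p = 0.100 over the same 12). For Mpcp2 and the chain r was 0.883 (exact permutation p = 0.00972, adjusted p = 0.0229) and rho 0.943 (exact permutation p = 0.0167, adjusted p = 0.0667). These p-values are no independent evidence, since Mpcp1 was picked for its diet difference and the pooled values contain that difference. For deviations from the group means, r was 0.794 for Mpcp1 and 0.809 for Mpcp2, each with an exact permutation p of 0.194.

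The relations to the whole chain rested on juice replicates 1 and 2, the arrays farthest from the median of either gene. Without both, r to the chain was 0.413 for Mpcp1 and 0.323 for Mpcp2, over the 4 arrays left, and leaving out the extremes of a gene narrows its span. With 1 array left out in turn, r ran from 0.849 to 0.951 for Mpcp1 and from 0.853 to 0.922 for Mpcp2. By complex, r to Mpcp1 was 0.941 for complex III, 0.924 for complex IV, 0.896 for ATP synthase, 0.836 for complex I and 0.814 for complex II. Without juice replicates 1 and 2 it was 0.885, 0.678, 0.265, 0.156 and 0.241 in the same order. The pooled values for Mpcp2 in that order were 0.936, 0.881, 0.866, 0.861 and 0.702. Without the same arrays they were 0.759, 0.184, -0.053, 0.537 and -0.740, so that the sign turned for ATP synthase and complex II. Complex III kept the highest r to either gene.

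**Figure D3:**
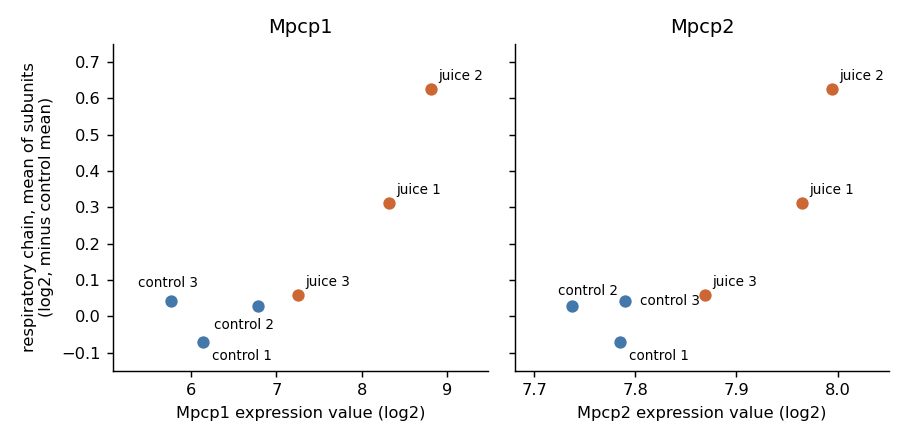
Mean of the 56 respiratory chain and ATP synthase subunits (log2, minus the control mean) against the log2 value of Mpcp1 (left) and Mpcp2 (right), 1 point per array, blue for control and orange for juice. The chain is higher in juice replicates 1 and 2 than in juice replicate 3, as both genes are, while the controls span 1.02 in Mpcp1 at chain values of -0.07 to 0.04.

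Gene by gene, r to Mpcp1 was above 0 in 56 of 56 tested subunits, with a median of 0.780 against -0.100 over all other tested genes. To Mpcp2 the median was 0.777 against -0.055, and again 56 of 56 were above 0. At r of at least 0.8 there were 23 subunits for Mpcp1 and 22 for Mpcp2, or 41.1% and 39.3% of the subunits, against 4.69% and 3.00% of all tested genes. Of the 56, 30 had a higher r to Mpcp1 than to Mpcp2, or 53.6% against 43.9% of all tested genes. The subunits nearest to Mpcp1 were RFeSP (r = 0.986), ND-MLRQ (0.983), ATPsyndelta (0.981) and COX8 (0.974), and these were singled out after their values were seen. All such values cover 6 arrays that share the diet contrast.

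**Figure D4:**
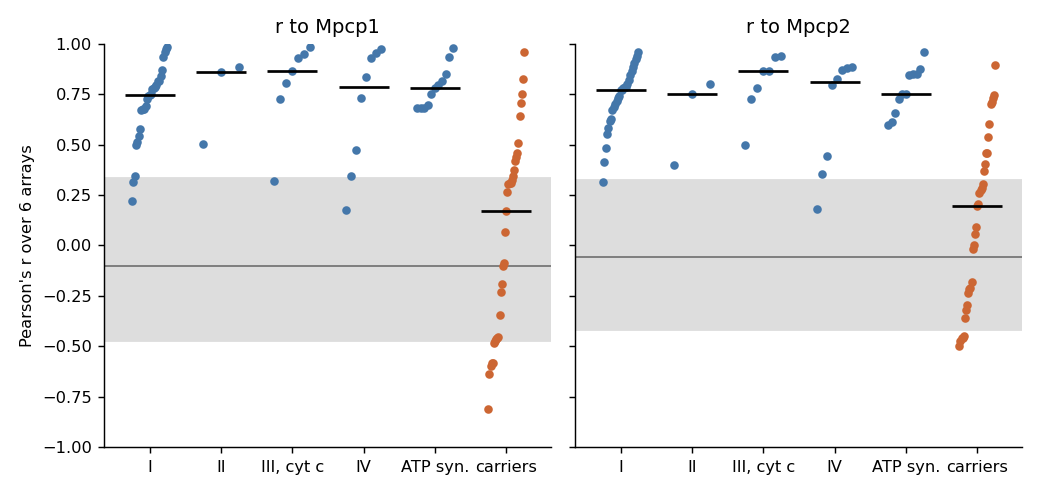
Pearson's r over 6 arrays of each tested subunit (blue, by complex) and of each other mitochondrial carrier (orange) to Mpcp1 (left) and Mpcp2 (right), with black bars at group medians and the grey line and band at the median and the quartiles of all tested genes. The subunits lie above 0 throughout, with medians of 0.780 and 0.777, and the carriers lie on both sides of 0.

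The other members of the carrier family lay on both sides of 0. Of 42 listed, 38 had a row of their own and 33 passed the filter. Of these 18 were higher and 15 lower, where 44.9% of all tested genes were higher, and the median difference was 0.04. At unadjusted p under 0.05, 1 was higher and 0 lower, 3.03% of those tested against 4.68% of all genes. Their median r was 0.172 to Mpcp1 and 0.196 to Mpcp2, with single values to Mpcp1 from -0.810 to 0.959. The median difference turned to -0.043 without juice replicate 2.

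The member at unadjusted p under 0.05 was sesB, the fly's main ADP/ATP carrier, at 7.41, 7.43 and 7.21 in control and 7.90, 7.88 and 7.72 in juice arrays. Its groups did not overlap, and the juice arrays lay closer together than in Mpcp1. The difference was 0.48 ± 0.14 (limma's moderated SE, adjusted p = 0.931), and r was 0.959 to Mpcp1 and 0.897 to Mpcp2 over 6 arrays. Ant2, the neighbouring second ADP/ATP carrier gene, was at 3.60, 2.65 and 2.91 in control and 2.69, 2.83 and 2.89 in juice arrays, with overlapping groups and a difference of -0.25 ± 0.25. Whether sesB and Ant2 differed in their response was not tested.

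Among the other carriers, CG18324 differed by 0.31 ± 0.16, Shawn by 0.27 ± 0.18 and Slc25A46b by -0.83 ± 0.53 (SE). Slc25A46b was at 6.11 in control replicate 1 and between 3.68 and 4.22 elsewhere, so its difference came from 1 array. Its range of 2.43 was the widest of the 33. That of Mpcp1 was 3.05, which contains the diet difference the gene was chosen for. Within the control arrays Slc25A46b ranged over 2.16 and Mpcp1 over 1.02, and within the juice arrays over 0.54 and 1.55. The range of Mpcp2 was below the family's median of 0.59.

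**Figure D5:**
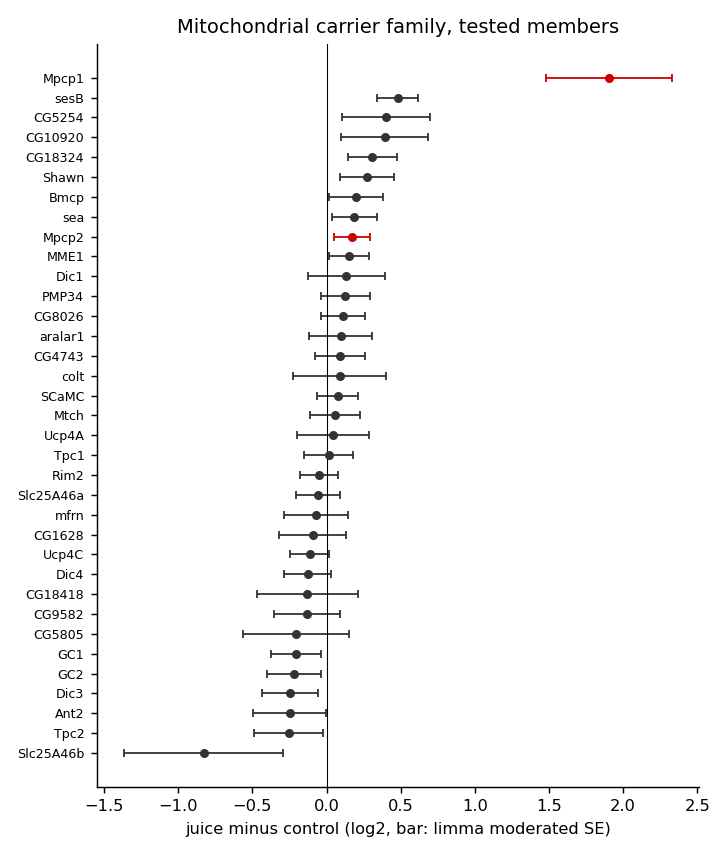
Juice minus control difference (log2, points) with limma's moderated SE (bars) for the 33 tested members of the mitochondrial carrier family and, in red, Mpcp1 and Mpcp2. Mpcp1 stands at 1.90, followed by sesB at 0.48, and Mpcp2 lies among the other members at 0.17.

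The genes whose values followed Mpcp1 most closely over the 6 arrays, among those ranging over at least 1, were ea, Ac76E, Cpr60D, CG17107, Sodh2, Peritrophin-A, obst-E and l(2)34Fc, with r from 0.979 to 0.993. They include ea, a serine protease of the extracellular cascade that patterns the embryo, the adenylyl cyclase gene Ac76E and the sorbitol dehydrogenase gene Sodh2. Cpr60D encodes a cuticle protein, and Peritrophin-A and obst-E encode chitin-binding proteins. Cpr60D was at 2.32, 2.61 and 1.99 in the control arrays, all below the 2.63 of the filter on dim genes. It passed that filter only through its juice arrays, with a mean of 3.39. Its range and its r to Mpcp1 therefore include control values too dim to be relied on. The gene ea was at 6.13, 6.31 and 5.88 in control and 7.01, 7.08 and 6.59 in juice arrays, the order of Mpcp1 with a smaller difference of 0.79. CG17107 came nearest to it in size, at 5.28, 6.01 and 4.61 in control and 7.06, 7.86 and 6.07 in juice arrays. The r of the 8 to Mpcp2 ran from 0.838 to 0.925. That it was lower follows from the choice, since no gene under this rule had r to Mpcp2 above 0.974.

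The genes nearest to Mpcp2 by the same rule were CG34445, CG14292, CG42822, Nha2, ND-39, Cyt-c1, CG13912 and CG9757, with r from 0.931 to 0.974. Among them are the complex I and complex III subunits named above and Nha2, a sodium/proton antiporter. Nha2, ND-39, Cyt-c1 and CG9757 had a higher r to Mpcp1 than to Mpcp2. The rule on the range left out genes as level as Mpcp2 itself. Nothing on shared function or control follows from either list.

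The protein-coding genes next to Mpcp1 on chromosome arm 2R and next to Mpcp2 on chromosome arm 3L did not share their patterns. Beside Mpcp1, CG9143 ran from 3.11 to 3.45 over the 6 arrays and CG16868 from 4.47 to 5.19, with r to Mpcp1 of -0.326 and -0.585. CG11788 and CG34199, a gene further on each side, lay below the filter on dim genes. Beside Mpcp2, CG43246 and Gbs-70E had r of 0.137 and 0.166, and of the genes further out CG34039 had r of -0.180 and CG4613 lay below the filter.

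Markers of other tissues and of moulting moved with Mpcp1 in part. Of 11 tested muscle genes, 8 were higher, against 44.9% of all tested genes, and 5 were higher and 0 lower at unadjusted p under 0.05, or 45.5% of the list against the 4.68% of all genes. The list mean relative to all arrays ran from -0.33 to 0.04 in control and from -0.17 to 0.56 in juice arrays, with its highest value in juice replicate 1. The median r of muscle genes to Mpcp1 was 0.898, and 11 of 11 had a higher r to Mpcp1 than to Mpcp2, as did 43.9% of all tested genes. This was not particular to muscle, since it held for 9 of 9 midgut and 8 of 9 citric acid cycle genes, but for 0 of 7 testis genes. Of 13 tested genes that respond to ecdysone, the moulting hormone, 11 were lower and 2 higher, where 44.9% of all tested genes were higher. At unadjusted p under 0.05, 5 were lower and 0 higher, or 38.5% of the list, where 2.00% of all tested genes were lower and 2.68% higher. This list's mean ran from 0.10 to 0.54 in control and from -0.78 to 0.02 in juice arrays, with a median r to Mpcp1 of -0.763. Of 15 listed citric acid cycle genes 9 had a row of their own. All 9 were tested and 8 were higher, with a median r of 0.668. Of 15 other mitochondrial channel, import and dynamics genes 11 were higher, with a median r of 0.196, where 44.9% of all tested genes were higher. For list means, the measure used for the chain, r to Mpcp1 was 0.912 for the citric acid cycle and 0.891 for the chain. It was 0.738 for muscle and 0.067 for the other mitochondrial carriers. Without juice replicates 1 and 2 these were 0.435, 0.413, 0.594 and -0.536 in the same order. Each of these pooled values contains the diet difference. Midgut, fat body, nervous system, salivary gland and testis genes had median r to Mpcp1 of 0.302, -0.568, -0.238, -0.487 and -0.584. The median over all other tested genes was -0.100. The fat body value rests on 4 tested genes, and 7 of 7 tested testis genes were highest in control replicate 1, an outlying array. The part of muscle content, moulting stage or these tissues in the values of Mpcp1 was not tested.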

How the data were processed

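Total RNA was measured on 6 single-channel Affymetrix arrays, prepared per the labels' protocols with a Qiagen RNeasy kit and GeneChip WT PLUS reagents from 100 ng. The authors deposited 1 log2 value per row and array. Per the submitters' processing notes, the tools were Affymetrix Expression Console 1.4.0.38 and RMA, with the order of steps not given in the sources used here. Values between 1.44 and 12.97, and medians per array between 3.60 and 3.77, fit a log2 scale. The number of arrays limits the precision.

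Of 16322 rows, 13441 were annotated to 1 gene and used. They held 13402 genes; of several rows the brightest was kept, and the dimmest 25% of genes (mean below 2.63) were left out, leaving 10051. A name without a row of its own was not used. Names came from the platform annotation, updated by identifier through a RefSeq gene table of Release 6 plus ISO1 MT, which also gave gene order.

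Groups were compared with limma 3.58.1 in R 4.3.3 (lmFit, eBayes, no covariate, Benjamini-Hochberg over all tested genes). The limma fit was also run on simulated data with independent noise for each gene, unlike these data, where subunits moved together. Nothing on the results here is read from that run. Correlations used exact permutations over 6 arrays. Named genes were, by rule, both members, the 8 genes most like each, up to 4 per complex and of the carriers by smallest unadjusted p, sesB, Ant2 and chromosomal neighbours. Members, lists and tests were chosen with earlier results of these data known. Alternatives were each array left out, a block for replicate number, other filters, scalings, variance models, array weights, averaged rows and other correlation measures.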

Additional observations from a re-analysis of the deposited data

How the results depend on the processing

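The differences of Mpcp1 (1.52 to 1.94) and Mpcp2 (0.14 to 0.21), the shift of Mpcp1 against Mpcp2 (1.37 to 1.73) and the median of the chain (0.13 to 0.38) kept their direction under the filters, scalings, weights and row choices tried, and with the outlying pair control replicate 1 and juice replicate 2 left out, an alternative chosen after seeing the data. With 1 array left out the ranges were 1.57 to 2.34 for Mpcp1, 0.15 to 0.21 for Mpcp2, 1.42 to 2.13 for the shift, 0.20 to 0.48 for the chain and -0.043 to 0.077 for the carriers. The carriers' median turned (-0.043) without juice replicate 2. For the relation of Mpcp1 to the chain, Spearman's rho was 0.829, within-group r 0.794, and r without control replicate 1 and juice replicate 2 0.825, all with exact permutation p above 0.05; for Mpcp2 the within-group r was 0.809. Leaving out 1 array gave r of 0.849 to 0.951 and of 0.853 to 0.922, and p passed above 0.05 for Mpcp1 without control replicate 1 (exact permutation p = 0.0667), juice replicate 1 (0.075) or juice replicate 2 (0.075), and for Mpcp2 was at 0.05 without control replicate 3 and 0.0583 without juice replicate 1 or 2. Fewer arrays also raise the smallest p possible. The pooled p-values are no independent evidence at any setting, since they contain the diet difference for which Mpcp1 was picked. Genes at adjusted p under 0.05 numbered 0 to 4 with 1 array left out (4 without juice replicate 3) and 0 otherwise, and those at unadjusted p 181 (without control replicate 3) to 750 (without juice replicate 1). The labels do not say that a replicate number pairs pools, and same-numbered pools did not deviate together (correlations of -0.108, -0.074 and -0.082). With the replicate block limma called 0 genes (484 at unadjusted p under 0.05), and r to the chain was 0.875 for Mpcp1 and 0.974 for Mpcp2, where the smallest possible exact permutation p is 0.25. Deviations from the mean of a replicate number hold only the diet difference within that number. These r values are therefore no check of the relation, and nothing is read from them.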
